A study of Mus musculus with 12 samples.

Results

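The mitochondrial respiratory chain genes described here are the 94 genes, of 23420 gene symbols measured, whose symbols begin with Nduf, Uqcr, Cox4, Cox5, Cox6, Cox7, Cox8 or Atp5, or are Sdha, Sdhb, Sdhc, Sdhd, Cyc1 or Cycs. They were picked by their names, with earlier results of these data known. They fall into 36 subunits of complex I, 8 assembly factors of complex I, 4 subunits of complex II, 9 of complex III, cytochrome c, 20 genes of complex IV and 16 of ATP synthase. Expression was measured in leukocytes of the mouse epidermis sorted as CD45+CD3-CD11b+MHCII+, a gate that takes in Langerhans cells and related myeloid cells, with 100 cells in each tube. The 4 groups were wild type (wt) at P5 (day 5 after birth), Cbfβ2 knockout (KO) at P5, wild type at 1.5M (1.5 months after birth) and Cbfβ2 knockout at 1.5M, with 3 libraries each. Cbfβ2 is a form of the core-binding factor β protein, the partner of the Runx transcription factors. The labels give neither the strain nor the design of the knockout allele. Replicates are described there as independent preparations, with nothing on separate animals, so the p-values below measure the spread between libraries, which may be technical.

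The respiratory chain sits in the inner mitochondrial membrane. Complex I takes electrons from NADH and complex II takes them from succinate, ubiquinone and complex III pass them on to cytochrome c, and complex IV gives them to oxygen. Complexes I, III and IV pump protons across the membrane, and ATP synthase uses the return of those protons to make ATP. In myeloid cells the balance between this pathway and glycolysis is known to shift with activation and differentiation. The mitochondrial genome encodes 13 further subunits. None was found among the gene symbols measured under the names looked up, so they could not be analysed here.

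Values are molecule counts scaled so that every library totals 37092, and 1 molecule was therefore worth between 0.479 and 1.20 scaled counts. Depth was 34192 to 52208 molecules for P5 wt and 40254 to 51848 for 1.5M wt; the P5 KO libraries held 30913 to 51001 and those of 1.5M KO held 74620 to 77419. Ptprc (CD45) was present in every library. The targeted gene Cbfb had 3.91 to 4.97 scaled counts in the newborn wt and 1.46 to 3.63 in the newborn KO, and 7.15 to 13.8 against 0.994 to 2.40 at 1.5M, from a tag at the 3′ end that does not separate its splice forms. The groups also differed in cell markers. Summed over 9 Langerhans cell markers, the P5 level was 1117 to 1226 (wt) and 692 to 899.9 (KO), and the 1.5M level was 3110 to 3405 (wt) and 1581 to 1880 (KO). Most of each sum came from Cd74 and the class II genes H2-Eb1 and H2-Ab1, in cells sorted as MHCII+. The sums therefore mainly give the class II level. Among the others at 1.5M, Ptprc was higher in KO (27.8 to 38.8 against 14.3 to 19.6). Epcam (2.88 to 5.28 against 35.8 to 43.5) and Cdh1 (3.48 to 16.3 against 25.8 to 33.1) were lower in KO. So were Cldn1 (0 to 0.480 against 56.2 to 57.8) and Ltc4s (0.959 to 1.99 against 10.1 to 22.9). Cd207 (langerin), a defining marker, was 189 to 252 in the adult wt and 18.7 to 24.9 in the adult KO, but only 0.711 to 2.93 (1 to 3 molecules per library) in the newborn wt and 0 in all P5 KO libraries. The 11 macrophage and monocyte markers in the table summed to 139 to 170, 167 to 212, 68.7 to 88.9 and 501 to 561 in the same order. Keratinocyte and neutrophil markers were highest in P5 KO, where the 12 keratinocyte markers summed to 206 to 616 against at most 85.2 in any other library. Erythroid markers summed to 1.60 to 234 in P5 KO and up to 2.84 in P5 wt, with Hba-a1 and Hba-a2 at 0 in P5 KO library 3. Genes of those other cell types took 2.67%, 1.52% and 1.33% of the counts in the 3 P5 KO libraries and at most 0.308% elsewhere. The part of these differences in the results below was not tested. In sorted pools, fewer cells of a type and less RNA per cell cannot be told apart.

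Of the 94 genes, 92 had a count in at least 1 library and 89 were above 0 in at least 3 of the 12 libraries, the filter for testing. The median gene had a mean of 5.20 scaled counts over the 12 libraries. These are counts of 3′ ends and do not grow with gene length, so they are set side by side here without a length correction, on the linear scale of scaled counts. Complex IV held the highest single level, Cox8a, a small structural subunit, with a mean of 26.9. In ATP synthase the highest was Atp5g2 at 23.8, which encodes subunit c, the proton-carrying ring. In complex I it was Ndufa6 at 15.9, an accessory subunit of the LYR-motif family that binds the mitochondrial acyl carrier protein. The highest gene of complex III was Uqcrh at 11.4, the hinge protein that helps join cytochrome c to cytochrome c1. Sdhd, a membrane anchor, led complex II at 6.15, and Cycs, the only cytochrome c gene in the set, had 4.89. The assembly factors of complex I were the lowest class, with a median of 0.651 and a highest mean of 2.197, that of Ndufaf7, a methyltransferase that acts on a core subunit. The symbols hide some roles: Atp5sl, now named Dmac2, is counted with the complex I assembly factors and not with ATP synthase, and Ndufa4 with complex IV.

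**Figure D1:**
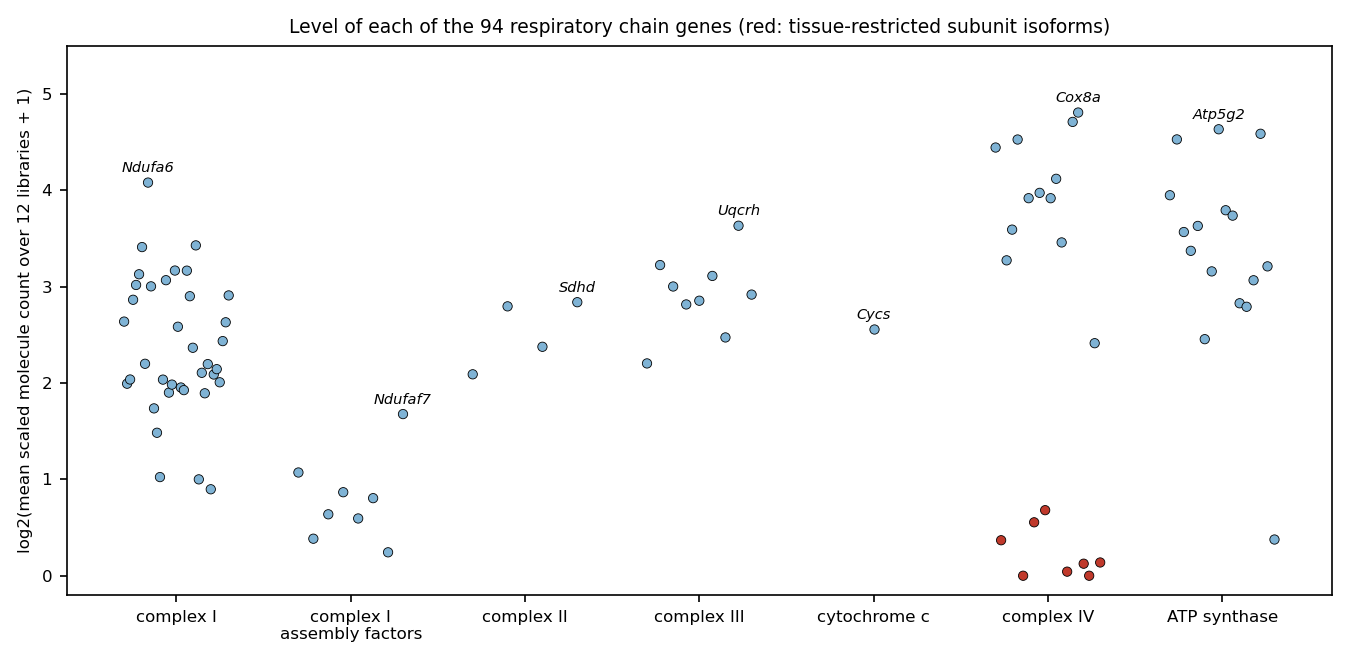
Mean level of each of the 94 genes over the 12 libraries, on a log2(mean scaled count + 1) axis, by complex, with 1 point per gene and the highest gene of each class named. Complex IV and ATP synthase reach the highest levels, with Cox8a at 26.9 scaled counts, and the 8 tissue-restricted isoforms, drawn in red, have means of at most 0.602 scaled counts.

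The tissue-restricted isoforms of subunits were at or near 0 in all groups, while the widely expressed partners were well detected. Cox6a2, found in heart and skeletal muscle, and Cox8c, found in testis, had no molecule in any library, which over the 610370 molecules of all libraries allows a level of up to 0.182 scaled counts. Cox8b, another muscle form, and Ndufa4l2, a hypoxia-induced relative of Ndufa4, had 1 molecule each, and Cox7b2, a testis form, a fraction of 1. Cox4i2, the lung form, had 5 molecules in 5 libraries, Cox6b2, a testis form, had 7 in 6 libraries, and Cox7a1, a muscle form, had 10 in 7 libraries. The partners had means of 20.7 for Cox4i1, 22.02 for Cox6a1, 14.1 for Cox6b1, 14.1 for Cox7a2, 9.98 for Cox7b, 26.9 for Cox8a and 4.32 for Ndufa4. Limits that a count of 0 allows cover counting error only. A few members had values that were not whole molecules (Ndufaf7 in 9 libraries, Cycs in 7, Ndufs5 in 6 and Ndufa6 in 2, both P5 wt). Whether reads of similar sequences were split among genes is not given in the sources used here, and these levels are uncertain to that extent.

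Promoters of nuclear respiratory genes are known for sites of the transcription factors NRF-1, GABPA (an ETS factor) and YY1. RefSeq promoter windows of 300 bases (250 before and 50 after a start site, GRCm38.p6) were found for 77 of the 94 genes, giving 83 windows among 32851 in all. On either strand, the core of an NRF-1 site, GCGCA and GCGC with 1 base of any kind between them, was present in 24.1% of the members' windows and 4.60% of all windows. AAGATGGC, a YY1 site, was present in 14.5% of members' windows and 2.75% of all. CCGGAAGT, an ETS site, was present in 6.02% and 3.89%. None of these strings contains another, and at least 1 of them was in 42.2% of the members' windows and 10.4% of all. All windows were not matched to those of the members for base composition. The matches in the genes called in the comparisons below are shown as matches of letters only, and binding or regulation was not tested. Each is given on the gene's own strand as 30 bases, with the match in capitals; in Ndufa6 and Atp5o the match reads as the reverse complement.
Ndufa6, chr15:82354249-82354278, NRF-1: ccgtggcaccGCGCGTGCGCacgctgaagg
Atp5o, chr16:91931602-91931631, NRF-1: gctggcgcgcGCGCGTGCGCtctggcgcca
Atp5g2, chr15:102671070-102671099, NRF-1: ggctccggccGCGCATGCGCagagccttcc
Atp5sl, chr7:25619429-25619458, YY1: cgttacctggcAAGATGGCggcgcccagag
Ndufb8, chr19:44555393-44555422, YY1: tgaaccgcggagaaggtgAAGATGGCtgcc
Relative to the start site, these matches begin at +23 in Ndufa6, +9 in Atp5o, -42 in Atp5g2, +26 in Atp5sl and +38 in Ndufb8. The windows of Atp5b, Ndufs8 and Uqcr10 held none of the 3 strings of letters.

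Summed over the 94 genes, P5 wt libraries gave the highest totals. The scaled counts were 732, 789 and 732 in P5 wt, with a mean of 751 ± 32.8 (SD, n = 3), or 2.02% of all counts. In P5 KO they were 556, 720 and 664, with a mean of 646 ± 83.5 (SD, n = 3). In 1.5M wt they were 553, 500 and 583, with a mean of 546 ± 42.0 (SD, n = 3), or 1.47% of all counts, and in 1.5M KO 522, 638 and 643, with a mean of 601 ± 68.2 (SD, n = 3). All 3 P5 wt libraries lay above all 9 others, and the other groups overlapped. With libraries divided by median-of-ratios factors in place of totals, P5 wt gave 679, 718 and 667, which lay above 1.5M wt (533 to 622) but overlapped P5 KO (552 to 713) and 1.5M KO (549 to 682). The lowest P5 KO library, library 1, was also the one with the largest share of counts from keratinocyte, neutrophil and erythroid genes, 2.67%. Libraries 2 and 3 had shares of 1.52% and 1.33%, beside sums of 720 and 664. A link of this share with the sums was not tested.

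The totals by complex did not all follow the same order. ATP synthase genes summed to 213 ± 9.76 in wt and 189 ± 18.2 in KO at P5, and to 144 ± 11.5 in wt and 175 ± 19.4 in KO at 1.5M (SD, n = 3). Complex III genes summed to 70.8 ± 2.73, 63.8 ± 11.3, 45.6 ± 5.83 and 65.1 ± 13.6 in the same order, with 1.5M wt the lowest mean. Complex IV genes summed to 214 ± 9.18, 187 ± 26.1, 172 ± 14.4 and 186 ± 29.9. Complex I genes summed to 218 ± 23.7, 172 ± 28.1, 158 ± 16.7 and 148 ± 7.51. The order of the adult groups there turned on Ndufa6: without that gene the complex I sum was 131 ± 15.5 in 1.5M wt and 139 ± 7.97 in 1.5M KO (SD, n = 3), with overlapping libraries. Complex II genes summed to 19.9 ± 8.86, 24.2 ± 1.77, 17.2 ± 3.43 and 16.8 ± 2.91. The P5 KO libraries of complex II, at 22.8 to 26.2, lay above those of 1.5M wt (13.6 to 20.4) and 1.5M KO (14.9 to 20.1), and those of P5 wt (10.7 to 28.4) overlapped all of them. Cytochrome c gave 4.47 ± 1.90, 4.30 ± 1.27, 5.404 ± 0.109 and 5.37 ± 1.56. The groups of cytochrome c overlapped except for P5 KO (2.85 to 5.24) and 1.5M wt (5.33 to 5.53), which lay side by side. These sums are descriptions and carry no test.

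**Figure D2:**
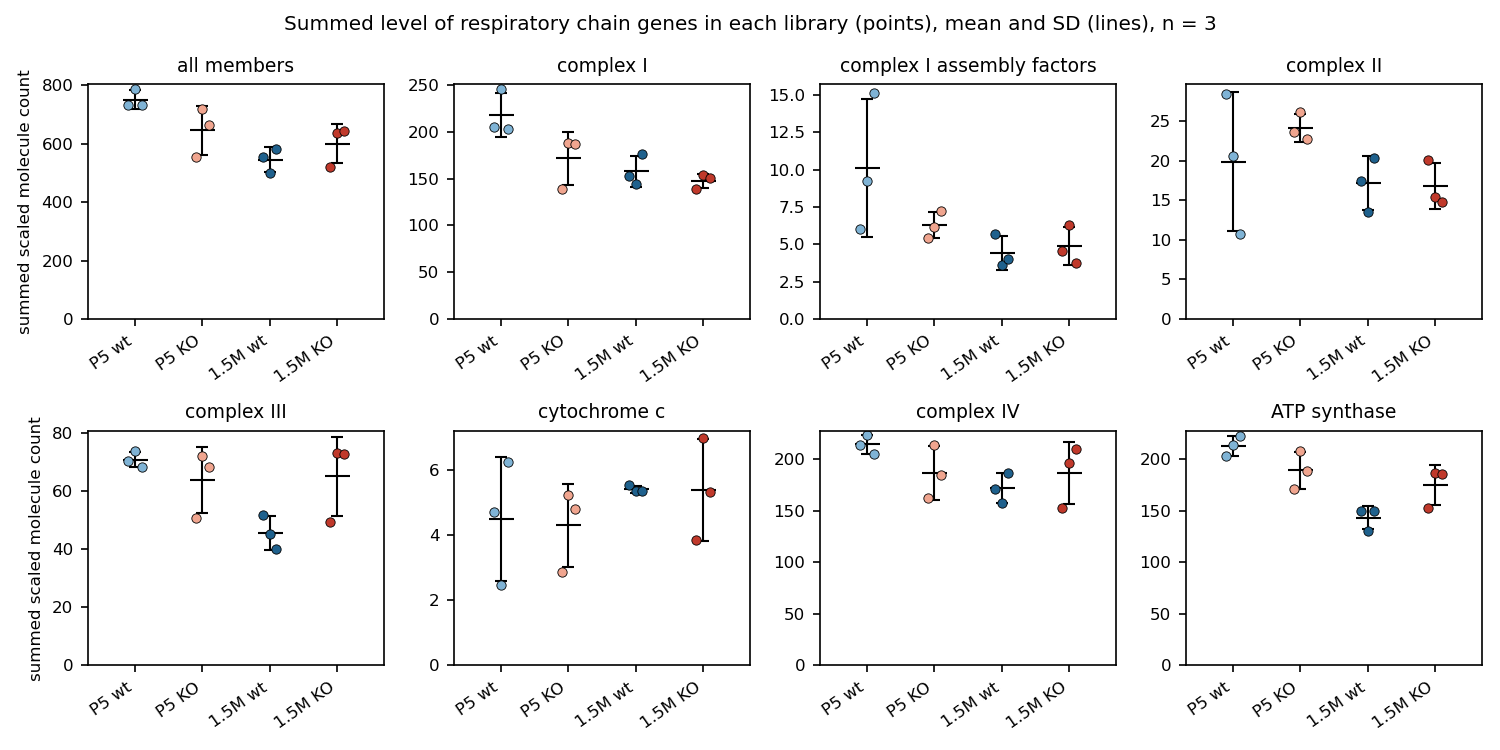
Summed scaled molecule counts of all 94 genes and of each class, with a point for each library and lines for the mean and SD of the 3 libraries of a group; each panel has its own axis from 0. In the panel for all genes the P5 wt libraries, at 732 to 789, lie above the other 9, which holds under this scaling to a common total and not for the KO groups under median-of-ratios factors.

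The comparison of 1.5M wt with P5 wt asks how the genes differ between the sorted epidermal leukocytes of newborn and young adult wild-type mice. Here 7 of the 89 tested genes fell and none rose at an adjusted p under 0.05 (limma, Benjamini-Hochberg over 10023 genes), the rule by which a gene is called in all comparisons below. This was 7.87% of the tested members, where 5.21% of all genes tested were called in either direction and 2.84% were called lower. Those that fell were 3 ATP synthase genes (Atp5b, Atp5g2 and Atp5o), 2 of complex I (Ndufs8 and Ndufb8), Uqcr10 of complex III and the assembly factor Atp5sl. The median log2 fold change, on the scale of log2(scaled count + 1), was -0.41 over the 89 members and -0.22 over all genes tested. Below 0 lay 69 of 89 members (77.5%), beside 65.3% of all genes. Dividing libraries by median-of-ratios factors in place of totals moved the median of all genes by 0.11, to -0.11, and that of the members to -0.23. Under that scaling 4 of the 7 were still called lower and Ndufa6 was called higher. At an unadjusted p under 0.05, 21 members were lower and 1 higher, which is 23.6% and 1.12% beside 12.1% and 6.11% of all genes.

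Within ATP synthase, 14 of 16 genes had a log2 fold change below 0 and the median was -0.54. With median-of-ratios factors 11 of 16 were below 0 and the median was -0.34. Atp5b, the catalytic β subunit, had scaled counts of 27.0, 23.9 and 30.3 in P5 wt and 17.5, 10.7 and 14.2 in 1.5M wt. Its log2 fold change was -0.91 (SE 0.26, limma adjusted p = 0.0466). The groups did not overlap, and the highest 1.5M wt library was library 1. Atp5g2 had 32.0, 39.1 and 30.3 in P5 wt and 18.4, 15.02 and 20.4 in 1.5M wt, a log2 fold change of -0.88 (SE 0.26, limma adjusted p = 0.0469), again with no overlap. The other subunit c genes, Atp5g1 and Atp5g3, encode the same mature protein and also had values below 0, -0.36 and -0.50, without being called. Atp5o, the OSCP subunit that ties the catalytic head to the side stalk, had 7.10, 15.2 and 10.7 in P5 wt against 2.76, 4.29 and 3.55 in 1.5M wt, so that every adult library lay under every newborn one. Its log2 fold change was -1.36 (SE 0.33, limma adjusted p = 0.017). GENCODE places small RNA genes within Atp5b (Snord59a and Mir677) and Atp5g2 (Mir688) on the same strand, and Gm20538 over Ndufb8, and molecules of overlapping genes would not be told apart in these counts.

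Within complex I, 31 of 36 genes were below 0, with a median of -0.49, and all 7 core subunits in the set, the conserved electron-carrying proteins, were below 0 (-2.37 to -0.46). With median-of-ratios factors 29 of the 36 were below 0 and the median was -0.34. Ndufs8, a core iron-sulfur protein, had 4.26, 11.9 and 2.93 scaled counts in P5 wt and 0.921, 0 and 0 in 1.5M wt. This rests on 20 molecules against 1, a ratio of adult to newborn of 0.0465 with a 95% exact interval of 0.00112 to 0.291 for counting error. The fitted log2 fold change was -2.37 (SE 0.53, limma adjusted p = 0.00864). Ndufb8, an accessory subunit of the membrane arm whose protein is a common gauge of complex I assembly, had 12.8, 11.9 and 10.7 in P5 wt and 2.76, 5.72 and 3.55 in 1.5M wt. The newborn libraries lay close together and all above the adult ones, with a log2 fold change of -1.39 (SE 0.34, limma adjusted p = 0.0162). Atp5sl, an assembly factor of the membrane arm of complex I, had 0.710, 3.25 and 5.86 in P5 wt and 0 in all 3 libraries of 1.5M wt. With 3 molecules over the group as the limit that a count of 0 allows, the P5 wt mean was 3.94 times that limit. The counting error of the 10 newborn molecules is not included, so this figure is not a lower bound. The gene was called lower (limma adjusted p = 0.0304).

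Complex III had 7 of 9 genes below 0 and a median of -0.72, or 6 of 9 and -0.54 with median-of-ratios factors. Uqcr10, a small subunit that lies against cytochrome c1, had 13.5, 11.9 and 9.77 in P5 wt and 2.76, 4.29 and 7.11 in 1.5M wt, with no overlap. Its log2 fold change was -1.21 (SE 0.34, limma adjusted p = 0.0404). In complex IV, 9 of 15 genes were below 0 and none was called, and the lowest adjusted p was 0.16, for Cox7a2 (log2 fold change -0.71, SE 0.27). The median of complex IV was -0.32, and with median-of-ratios factors 8 of 15 were below 0 with a median of -0.10. Complex II lay near 0, with 3 of 4 genes below it and 2 of 4 under median-of-ratios factors. Sdha, the flavoprotein, had -0.14 (SE 0.44), Sdhb, the iron-sulfur protein, -0.18 (SE 0.50), Sdhc, a membrane anchor, -0.22 (SE 0.44) and Sdhd 0.09 (SE 0.34), none of them called. Cycs had 0.29 (SE 0.37) and was not called. Ndufa6 went the other way from most of complex I, with 18.1, 16.3 and 11.2 in P5 wt and 21.2, 30.05 and 31.1 in 1.5M wt, a log2 fold change of 0.82 (SE 0.27) that did not pass (limma adjusted p = 0.0843). Overlap was absent for 21 members lower in the adult (23.6%, beside 13.2% of all genes) and 1 higher (1.12%, beside 6.06%).

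The 7 calls of this comparison changed with the libraries fitted and with depth, and the cause was not tested. In a fit of the 6 wild-type libraries alone none was called, and of all genes 73 were called higher and 38 lower. After thinning to equal depth only Ndufb8 was called, and it was also the only one called without P5 wt library 2.

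**Figure D3:**
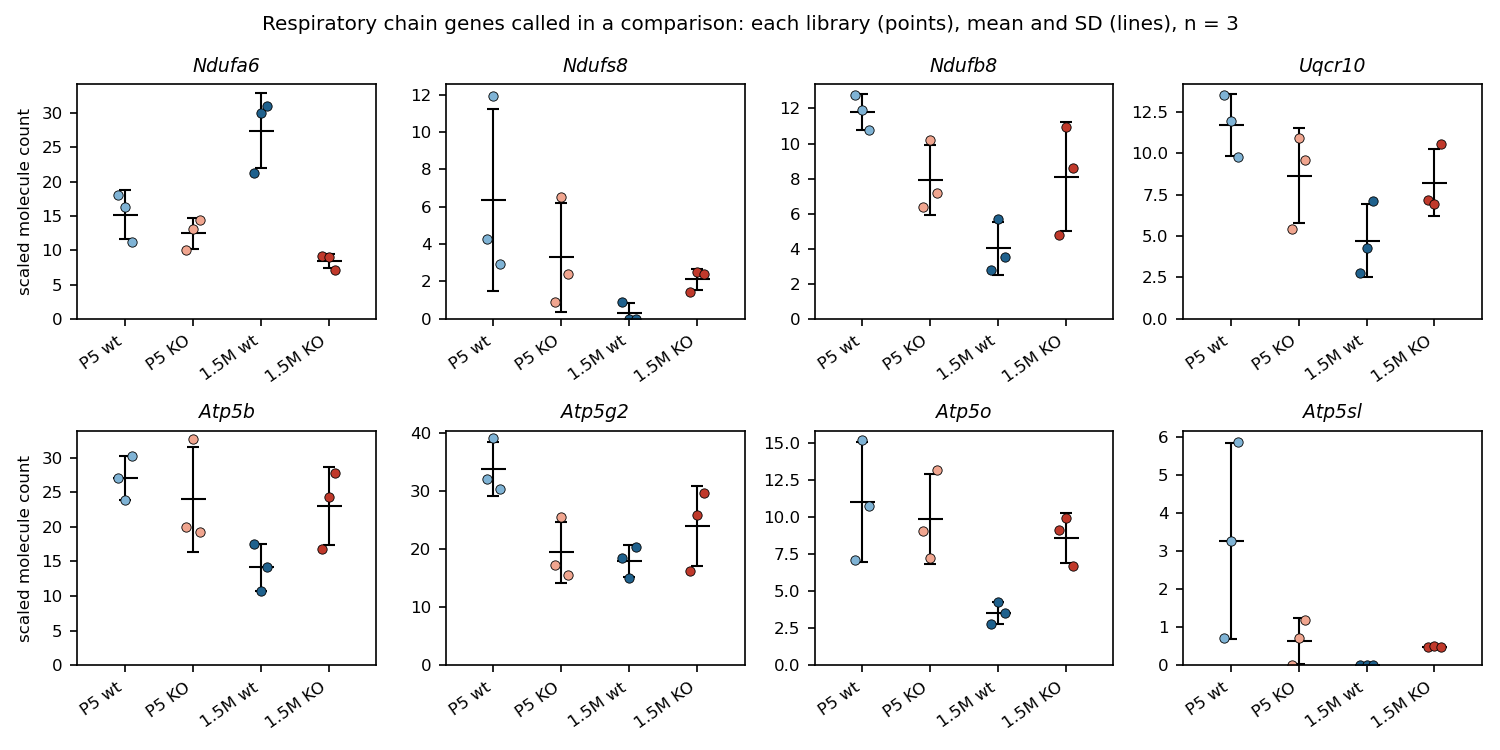
Scaled molecule counts of the 8 genes called in any comparison, with a point for each library and lines for the mean and SD of the 3 libraries of a group; each panel has its own axis from 0. Ndufa6 is highest in 1.5M wt, at 21.2 to 31.1, and the other 7 have their lowest mean there.

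The comparison of KO with wt at 1.5M addresses the effect of the knockout in the young adult. Of 89 members, 1 fell and none rose (1.12%), where 5.28% of all genes tested were called in either direction and 2.04% were called lower. At an unadjusted p under 0.05, 9 members were higher (10.1%, beside 9.44% of all genes) and 1 lower (1.12%, beside 5.45%). The gene called was Ndufa6, which lies on chromosome 15 at 82350140-82354322 on the minus strand (mm10, GENCODE) with no other annotated gene overlapping it. Its scaled counts were 21.2, 30.05 and 31.1 in 1.5M wt, with a mean of 27.4 ± 5.44 (SD, n = 3), and 9.11, 8.95 and 7.19 in 1.5M KO, with a mean of 8.42 ± 1.07 (SD, n = 3). The lowest wild-type library was thus above the highest knockout library by more than the range of the knockout group. The log2 fold change was -1.58 (SE 0.27, limma adjusted p = 0.000417). It rested on 100 molecules in wt and 52 in KO, whose libraries were deeper. After thinning all libraries to equal depth the value was -1.495 and the call was lost (limma adjusted p = 0.0675); under the other 16 alternatives the adjusted p was 1.39e-05 to 0.0109.

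Beside this difference, the sum of the Langerhans cell markers, mostly class II genes and Cd74, was lower in 1.5M KO (1581 to 1880 against 3110 to 3405). The sum of the macrophage and monocyte markers was higher (501 to 561 against 68.7 to 88.9). The part of such marker differences in the level of Ndufa6 was not tested. Keratinocyte, neutrophil and erythroid genes took at most 0.149% of any 1.5M library, and with them left out of the totals the value was -1.58. Leaving out so small a share only rescales the totals. It cannot show the part of Ndufa6 transcripts from such cells. At P5 the same gene had 18.1, 16.3 and 11.2 in wt and 9.99, 13.1 and 14.4 in KO, with overlapping groups and a log2 fold change of -0.25 (SE 0.27, limma adjusted p = 0.756). The test of the difference between the KO effects at 1.5M and at P5 gave -1.33 (SE 0.38) and did not pass (limma adjusted p = 0.0763). It passed at 0.0473 with median-of-ratios scaling and at 0.0409 when genes with a mean under 1 were left out. The partner proteins of Ndufa6 did not share its values: Ndufb9, the other LYR-motif subunit, had a log2 fold change of 0.24 (SE 0.40) and Ndufab1, the acyl carrier protein, -0.19 (SE 0.60), neither called and the latter resting on 3 molecules in wt and 4 in KO. These 2 genes were chosen after the value of Ndufa6 was seen.

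Most of the remaining members had higher values in the adult KO than in wt, without being called. The median log2 fold change was 0.24 over the members and 0.09 over all genes tested, and 56 of 89 members (62.9%) were above 0, beside 56.4% of all genes. Without 1.5M wt library 2 the members' median was 0.14 and that of all genes 0.12. Complex I had 22 of 36 genes above 0 and a median of 0.21. All 9 complex III genes were above 0, with a median of 0.37, none of them called; the lowest adjusted p was 0.274, for Uqcr11, a small subunit, at 0.83 (SE 0.37). ATP synthase had 11 of 16 above 0 with a median of 0.32. Atp5o had 2.76, 4.29 and 3.55 in wt and 9.11, 9.94 and 6.71 in KO, which do not overlap, at 1.08 (SE 0.33, limma adjusted p = 0.0674). That value passed, at 0.047, when the 6 libraries of 1.5M were fitted alone. Atp5j, coupling factor 6 of the side stalk, had 4.61, 2.15 and 0.888 in wt and 6.23, 5.47 and 9.58 in KO, at 1.30 (SE 0.45, limma adjusted p = 0.114). In complex IV the lowest adjusted p was that of Cox7a2l, a supercomplex factor, at -0.48 (SE 0.31, limma adjusted p = 0.554). Complex II had Sdha at 0.18, Sdhb at 0.48, Sdhc at -0.35 and Sdhd at -0.38, and Cycs was at -0.04. Among assembly factors the lowest adjusted p was 0.416, for Ndufaf6, which had 3 molecules in KO and 0 in wt. Groups did not overlap for 8 members higher in KO (8.99%, beside 13.9% of all genes) and 3 lower (3.37%, beside 7.18%).

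At P5 no member was called between KO and wt (0 of 89 by limma and by voom, where 1.80% of all genes tested were called by limma). At an unadjusted p under 0.05, 6 members were lower and 0 higher, which is 6.74% and 0% beside 6.13% and 6.62% of all genes. The median log2 fold change was -0.19 over the members and -0.01 over all genes, with 56 of 89 members below 0 (62.9%, beside 52.3%). Without P5 KO library 1 these medians were -0.058 and -0.016. Ndufs7, a core subunit whose iron-sulfur cluster hands electrons to ubiquinone, had 3.55, 8.68 and 5.86 scaled counts in P5 wt and 1.82, 0.727 and 1.20 in P5 KO. The groups did not overlap, but the KO group held only 4 molecules, and the log2 fold change of -1.61 (SE 0.46) did not pass (limma adjusted p = 0.081). With genes of a mean under 1 left out it passed at 0.046. Ndufa1, an accessory subunit of the membrane arm encoded on the X chromosome, had 6.39, 7.59 and 7.81 in wt and 1.82, 2.91 and 3.60 in KO, at -1.16 (SE 0.37, limma adjusted p = 0.136). Atp5g2 had 32.0, 39.1 and 30.3 in wt and 17.3, 25.5 and 15.6 in KO, at -0.79 (SE 0.26, limma adjusted p = 0.141), without overlap.

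In the other classes at P5 the lowest adjusted p values were 0.294 for Atp5sl (-1.24, SE 0.51), 0.468 for Uqcrb, a ubiquinol-binding subunit (-0.70, SE 0.38), and 0.495 for Cox7a2l (-0.54, SE 0.31). All 4 complex II genes were above 0, with Sdha at 0.35, Sdhb at 0.57, Sdhc at 0.21 and Sdhd at 0.03, and SEs of 0.34 to 0.50. Cycs was at -0.01 (SE 0.37). Members without overlap numbered 8 lower in KO, 7 of them in complex I (8.99%, beside 6.02% of all genes), and 0 higher (0%, beside 6.23%). The P5 KO libraries carry the most counts of keratinocyte, neutrophil and erythroid genes. With those genes left out of the totals the number called was still 0. That step takes out at most 2.67% of a library's counts and only rescales the rest. Member transcripts from those cells stay in, so it cannot show their part in these values.

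**Figure D4:**
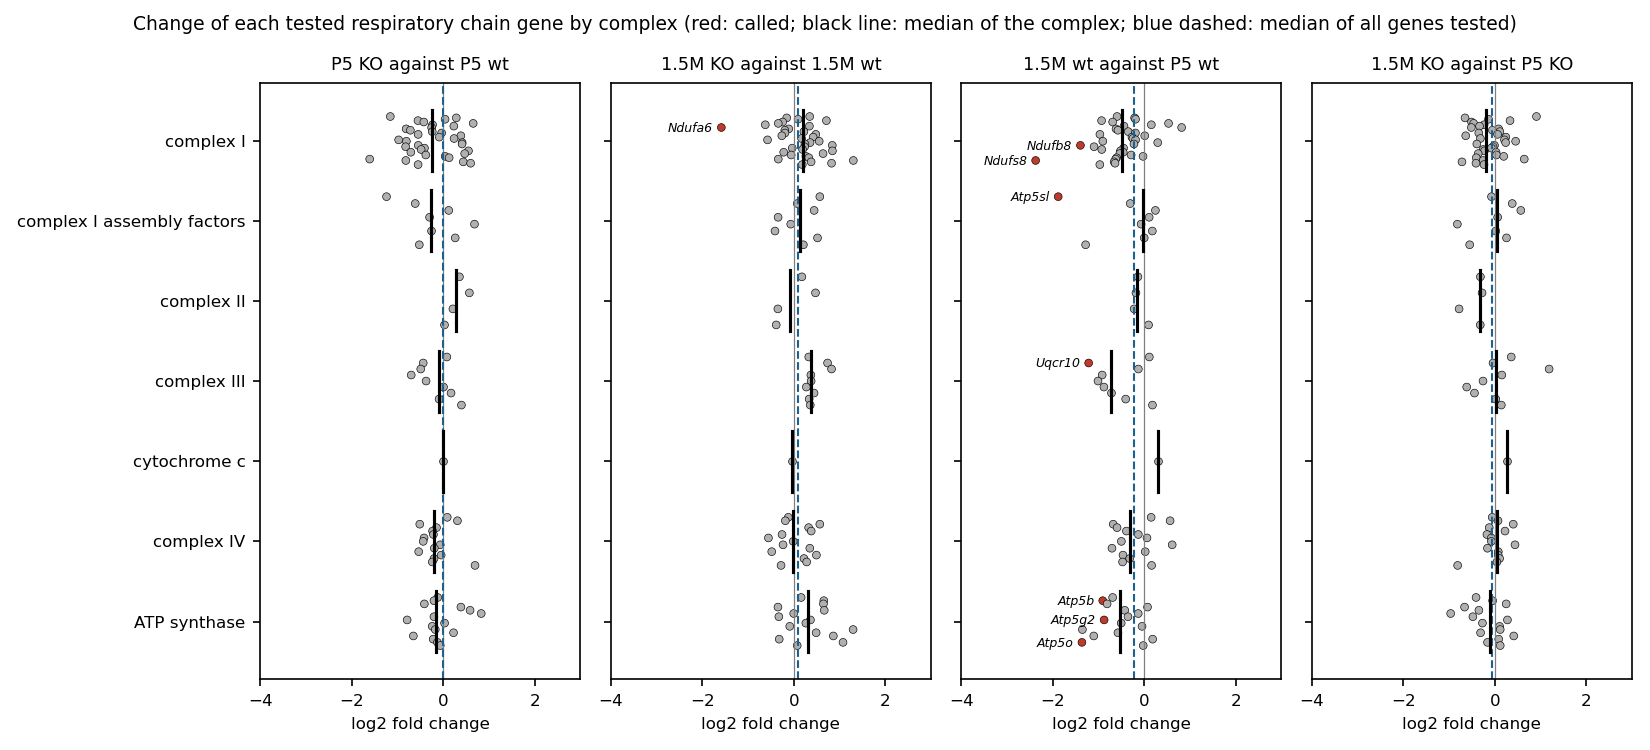
Log2 fold change of each of the 89 tested genes by class in 4 comparisons, on the log2(scaled count + 1) scale; red points are called, black lines are class medians and the dashed blue line is the median of all genes tested. In 1.5M wt against P5 wt the members' median of -0.41 lies below that of all genes, -0.22; in 1.5M KO against 1.5M wt, Ndufa6 at -1.58 stands apart to the left.

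Between P5 KO and 1.5M KO no member was called (0 of 89 by limma and by voom, where 3.14% of all genes were called by limma), and at an unadjusted p under 0.05 there were 2 higher and 0 lower, beside 6.42% and 7.81% of all genes. The median log2 fold change was -0.06 for the members, turning to 0.03 with median-of-ratios factors, and -0.06 for all genes. Without P5 KO library 1 it was -0.23 for the members and -0.026 for all genes, and with each of the other 5 libraries left out the members' median was -0.12 to 0.0041. The lowest adjusted p was that of Uqcr11, which had 2.72, 7.27 and 3.60 scaled counts in P5 KO and 7.67, 12.4 and 13.4 in 1.5M KO, at 1.19 (SE 0.37, limma adjusted p = 0.0837). It passed at 0.0336 without P5 KO library 2, the highest of its group. Ndufa1 had 0.91 (SE 0.37, limma adjusted p = 0.239), with no overlap between 1.82 to 3.60 at P5 and 5.47 to 6.71 at 1.5M. The lowest adjusted p in the other classes was 0.428 for Ndufaf4, an assembly factor (-0.82, SE 0.44), 0.456 for Sdhc (-0.78, SE 0.44), 0.464 for Ndufa4 (-0.81, SE 0.46) and 0.373 for Atp5d, a subunit of the rotating stalk (-0.66, SE 0.33). Complex II had all 4 genes below 0, with Sdha at -0.31, Sdhb at -0.28 and Sdhd at -0.32, and Cycs was at 0.27. Groups did not overlap for 3 members higher at 1.5M (3.37%, beside 8.15% of all genes) and 8 lower (8.99%, beside 1002 of 10023 genes).

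For the 7 genes that fell with age in wild type, the log2 fold change from P5 to 1.5M in the knockout was -0.25 for Ndufs8, -0.01 for Ndufb8, -0.07 for Atp5sl, -0.04 for Uqcr10, -0.05 for Atp5b, 0.28 for Atp5g2 and -0.16 for Atp5o. These 7 were chosen by the wild-type comparison, which is part of the difference described next, so their values are a description. The difference between the age effects in KO and wt, which is the same contrast as the difference between the KO effects at both ages, was called for none of the 89 members by limma or by voom, where limma called 1.32% of all genes above 0 and 0.678% below. At an unadjusted p under 0.05, 14 members were above 0 and 1 below, which is 15.7% and 1.12% beside 8.40% and 4.89% of all genes. Its values for the 7 ran from 0.86 (Atp5b, SE 0.37) to 2.12 (Ndufs8, SE 0.76), and the lowest adjusted p among them was 0.112, for Atp5g2 at 1.15 (SE 0.36). In the other classes the lowest adjusted p was 0.252 for Atp5sl at 1.81, 0.245 for Uqcr11 at 1.32, 0.439 for Cox5a at 1.08, a subunit of complex IV, and 0.785 for Sdhc at -0.56. Every group enters 2 of the 4 pairwise comparisons, so their values are not independent of each other.

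Other mitochondrial genes were grouped in lists by function. Of 20 tested genes of the tricarboxylic acid cycle and the entry of pyruvate into it, 1 fell from P5 wt to 1.5M wt, where 2.84% of all genes were called lower, and none rose in any comparison: Cs, citrate synthase, had 11.4, 10.8 and 10.7 scaled counts in P5 wt and 4.61, 2.86 and 1.78 in 1.5M wt, without overlap. Its log2 fold change was -1.61 (SE 0.42, limma adjusted p = 0.0255). Of 32 genes of import and cristae, 1 fell in the same comparison: Hspd1, the matrix chaperonin Hsp60, had 2.13, 6.51 and 6.84 in P5 wt and 0.921, 0.715 and 0.888 in 1.5M wt, at -1.63 (SE 0.45, limma adjusted p = 0.0329). Neither was called in the fit of the 6 wild-type libraries alone (limma adjusted p = 0.0614 and 0.138). None of the 26 tested assembly factors of complexes II to V, the 19 genes of other electron entry and coupling, and the 16 regulators of mitochondrial genes was called in any of the 5 comparisons (limma). At an unadjusted p under 0.05, at most 3 genes of any of these 3 lists lay in 1 direction in a comparison, the 3 being regulators lower in 1.5M wt than in P5 wt (3 of 16 tested, beside 12.1% of all genes).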

How the data were processed

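RNA from 12 tubes of 100 sorted cells was reverse transcribed with an oligo-dT primer carrying a molecular barcode, per the labels' protocols. Per the submitters' processing notes, TopHat2 and mm10 were used; releases, annotation, strand use and scaling are not given in the sources used here, and so were not assumed. For each gene and library the authors deposited a signal of 0 or more. Its values behave as molecule counts brought to a common total of 37092 in every library; 92.6% to 94.9% of values above 0 were whole multiples (within 0.01) of 1 molecule, under the 95% needed to treat them as counts, so no count model was used. Spike-in RNA was not used here.

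The 94 members and all gene lists were chosen with earlier results of these data known. Genes above 0 in at least 3 of 12 libraries (10023) were fitted together in limma 3.58.1 (R 4.3.3) on log2(value + 1), with a mean-variance trend, 1 mean per group and Benjamini-Hochberg adjustment; tests are two-sided and the threshold is 0.05. The script was tested on simulated data. Members named are those called in any comparison, per class the highest and the one with the lowest adjusted p in each comparison, the tissue-restricted isoforms and complex II, and the called genes of other lists; Ndufa1 in P5 KO against P5 wt, Ndufb9, Ndufab1, Atp5g1, Atp5g3, Atp5j and the isoforms' partners were added after values were seen. Coordinates are from GENCODE M21. Alternatives changed the pseudocount (0.1, 10), the filter, the scaling, the depth (thinning), the samples fitted, the replicate block and the model (voom), or left out 1 library; leaving keratinocyte, neutrophil and erythroid genes out of the total was added after seeing the data. Replicates of a group differed beyond sampling noise in all 12 pairs (chi-square per degree of freedom 1.17 to 2.18), so each counted as 1 sample.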

Additional observations from a re-analysis of the deposited data

How the results depend on the processing

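The number of members called changed with some settings. In 1.5M wt against P5 wt, where 7 were called, it was 4 with a pseudocount of 0.1, 4 without a filter, 1 after thinning and 0 in the fit of the 6 libraries alone. Leaving out 1 library gave 1 to 4: 3, 1 and 3 without P5 wt library 1, 2 and 3, and 4, 3 and 4 without 1.5M wt library 1, 2 and 3. In 1.5M KO against 1.5M wt, where 1 was called, it was 3 with a mean of at least 1, 0 after thinning, 3 in the fit of the 6 libraries alone and 1 to 2 with 1 library left out (2 without 1.5M wt library 1). Where none was called, a mean of at least 1 gave 1 in each comparison (Ndufs7 in P5 KO against P5 wt, Uqcr11 in 1.5M KO against P5 KO, Ndufa6 in the difference of KO effects). Median-of-ratios scaling gave 1 (Ndufa6) and thinning 1 (Ndufa1) in that difference. Leaving out 1 library gave 0 to 1 in 1.5M KO against P5 KO. The cause was not tested. The summed level of P5 wt was 688 with median-of-ratios scaling, where the other groups had 584 to 630.

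Among the named genes followed through the alternatives, signs turned only for Cycs and Sdhc, in values that were never called. Other members turned too: in 1.5M wt against P5 wt, 14 of 16 ATP synthase genes were below 0, and 11 with median-of-ratios factors. For Cycs in P5 KO against P5 wt the value became 0.055 with median-of-ratios scaling, 0.050, 0.22 and 0.20 without P5 wt library 1, P5 wt library 3 and P5 KO library 1, and 0.0049 with keratinocyte, neutrophil and erythroid genes out of the total; its range with 1 library left out was -0.31 to 0.22. For Cycs it became 0.15 in 1.5M KO against 1.5M wt without 1.5M KO library 1 (range -0.21 to 0.15), and -0.0062 in 1.5M wt against P5 wt without P5 wt library 2 (range -0.0062 to 0.53). In the difference of KO effects Cycs became 0.0053 with a pseudocount of 10, and 0.27, 0.11, 0.058 and 0.16 without P5 wt library 2, P5 KO library 2, P5 KO library 3 and 1.5M KO library 1 (range -0.26 to 0.27). Sdhc in 1.5M wt against P5 wt became 0.12 without 1.5M wt library 1 (range -0.46 to 0.12).

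Libraries with the same replicate number did not deviate together: their correlations over 3192 genes ran from -0.042 to 0.038 in 18 pairs, and 4 of 12 libraries correlated best with their own number. With the replicate number as a block, 0, 1, 6, 0 and 0 members were called in P5 KO against P5 wt, 1.5M KO against 1.5M wt, 1.5M wt against P5 wt, 1.5M KO against P5 KO and the difference of KO effects; the 1 call lost was Atp5b (limma adjusted p = 0.0555). Depth limits low members: 3 molecules over a group correspond to 0.895, 0.907, 0.831 and 0.485 scaled counts in P5 wt, P5 KO, 1.5M wt and 1.5M KO.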
